A study of Mus musculus with 12 samples.

Results

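The comparison set 3 RNA libraries of mouse lung cells at postnatal day 7 (P7) against 3 at E17.5, late in gestation. These are 6 of the 12 libraries in the series, which also holds 3 libraries each at P3 and P10, and they were chosen by the stage in their labels. At both stages the genotype was Acta2-dsRed+, Pdgfra-GFP+, so each mouse carried 2 fluorescent reporters, red for the smooth muscle actin gene Acta2 and green for the receptor gene Pdgfra. Whole lungs were dissociated, and cells with both colours were sorted for RNA extraction, with no further treatment named. The sort keeps any cell with both reporters and so does not by itself select 1 cell type. The labels name no strain or sex. Since no label ties a library to its own animal, p-values measure how far these samples spread, and that spread may be technical.

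E17.5 falls in the saccular stage of mouse lung development, when the distal airspaces are wide sacs with thick walls, shortly before birth and the first breath. At P7 the sacs are being divided into alveoli by septa that grow out from their walls. Secondary crest myofibroblasts, which contain smooth muscle actin, carry the receptor of platelet-derived growth factor and lay down elastin at the septal tip, are the cells best known for this step. The series title places the study in the Hippo pathway, in which the kinases Lats1 and Lats2 hold back the transcriptional coactivators Yap1 and Wwtr1.

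Of 16827 genes tested, 4271 (25.4%) differed between P7 and E17.5 at an adjusted p under 0.05 and are described here as called. By direction, 2165 genes (12.9%) were higher and 2106 (12.5%) lower at P7, and 1082 (6.43% of genes tested) were at least 2-fold higher and 964 (5.73%) at least 2-fold lower. Counts of called list members below are to be read beside the 12.9% and 12.5%. Every adjusted p is from edgeR's quasi-likelihood test with Benjamini-Hochberg adjustment over all genes tested, and fold changes are P7 over E17.5 on the log2 scale. Levels are given as CPM, which are estimated counts relative to a scaled library total, and those of different genes are not compared, because CPM are not divided by transcript length. The median log2 fold change over all genes tested was -0.01. The P7 and E17.5 libraries did not overlap for 7222 genes (42.9%), with P7 higher in 3672 (21.8%) and lower in 3550 (21.1%). Absence of overlap, where given below, is to be read beside these shares. Without P7 replicate 3 the counts were 1403 higher and 1316 lower, without E17.5 replicate 1 they were 1827 and 1748, and without E17.5 replicate 2 they were 1631 and 1463.

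**Figure D1:**
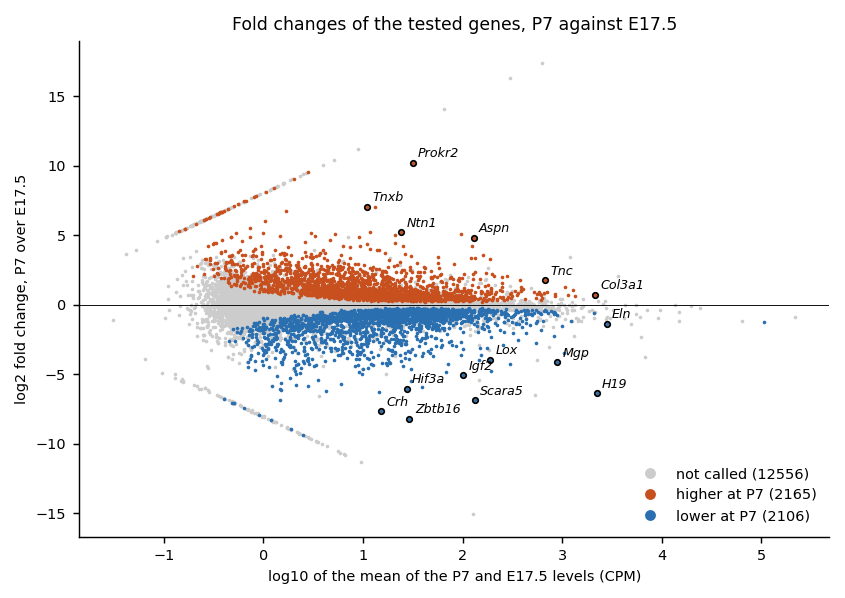
Log2 fold change of P7 over E17.5 (y axis) against the log10 of the mean of the P7 and E17.5 levels in CPM (x axis), 1 point per tested gene, with genes called higher at P7 in orange, genes called lower in blue and all others in grey. The called genes lie on both sides in near equal number (2165 and 2106), and 6 genes at 0 in all 6 libraries are not drawn. The straight lines of points at the left are genes at 0 in every library of 1 stage.

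Before the results, the libraries themselves were compared. Estimated counts summed to between 14481898 and 18643094 in the P7 libraries and between 16582871 and 18740591 in the E17.5 libraries. Spearman correlations were 0.956 to 0.961 among P7 libraries, 0.938 to 0.941 among E17.5 libraries and 0.881 to 0.916 between the stages. Small structural RNAs held 32.6%, 30.6% and 36.1% of the summed values in the P7 libraries, against 39.8%, 53.5% and 38.9% in the E17.5 libraries. E17.5 replicate 2 stood apart in that share and E17.5 replicate 1 in genes of alveolar fibroblasts, which are described with those genes below.

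The defining genes of the sort gave a mixed picture. Acta2 (smooth muscle actin, chromosome 19, 34241090 to 34255590, minus strand, GRCm38) had 823, 690 and 952 CPM at P7, against 347, 432 and 696 CPM at E17.5. The ranges overlap narrowly, and the difference was not called (log2 fold change 0.74, SE 0.28, adjusted p = 0.0747), although DESeq2 called it, as did the fits that left out E17.5 replicate 3 or P10 replicate 1. Pdgfra (chromosome 5, 75152292 to 75198215, plus strand) had 186, 218 and 168 CPM at P7, against 268, 409 and 361 CPM at E17.5. All P7 libraries lay below all E17.5 libraries, and Pdgfra fell (-0.86, SE 0.19, adjusted p = 0.00739).

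Markers of cells outside the sort were low, and some of them moved with the stage. The 20 alveolar epithelial markers summed to 149 to 198 CPM at P7 and 152 to 203 CPM at E17.5 (two-sided exact permutation p = 0.7), and the 17 immune markers to 18.7 to 27.8 CPM at P7 and 13.3 to 19.9 CPM at E17.5 (exact permutation p = 0.2). The 10 airway epithelial markers summed to 132 to 180 CPM at P7, against 15.2 to 26.9 CPM at E17.5, with 1 of 10 at 0 in every P7 library and 2 of 10 in every E17.5 library. Most of that sum was Tppp3, a tubulin-binding protein of ciliated cells, and Scgb1a1, the secretoglobin of club cells, while Foxj1, the factor that defines ciliated cells, was at 0.30, 0.28 and 0.26 CPM at P7 and 0.20, 0.29 and 0.16 CPM at E17.5. Ptprc, which defines immune cells, was at most 0.45 CPM at P7 and 0.20 CPM at E17.5. Of 10 immune markers tested, however, 3 were called higher (30%) and 1 lower (10%), against 12.9% and 12.5% of all genes. Lyz2, the immune marker with the highest mean at both stages, had 10.8, 12.5 and 9.83 CPM at P7. At E17.5 it had 6.18, 6.13 and 5.11 CPM (0.93, adjusted p = 0.00343). The 7 erythroid markers summed to 12.5 to 44.3 CPM at P7, against 117 to 180 CPM at E17.5. The 17 endothelial markers summed to 58.7 to 81.3 CPM at P7, against 316 to 563 CPM at E17.5, but the other 16 without Ednrb summed to 53.8 ± 15.4 CPM at P7 and 69.2 ± 13.3 CPM at E17.5 (SD, n = 3 each). With 3 libraries against 3 the smallest exact p is 0.1, which the airway, erythroid and full endothelial sums reached. So did the 8 mesothelial markers, at 4.68 to 6.52 CPM at P7 and 9.79 to 13.3 CPM at E17.5, and the 7 neural and Schwann markers, at 10.8 to 14.4 CPM at P7 and 3.94 to 5.16 CPM at E17.5. The part of these cells in the results that follow was not tested. In bulk RNA, fewer cells of a type and less RNA per cell cannot be told apart, which applies to every result here.

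Several of the genes with the largest rises and falls had levels near 0 at one of the stages. Prokr2, a receptor for prokineticin peptides (chromosome 2, 132337733 to 132385447, minus strand), had 74.4, 62.9 and 51.2 CPM at P7, against 0.068, 0.0973 and 0 CPM at E17.5. It rose with the highest fitted fold change among the genes selected (10.21, SE 0.96, adjusted p = 0.000106; 9.50 without E17.5 replicate 3). The fitted size rests on E17.5 levels of a few estimated counts, and limma-voom did not call the gene. Tnxb, the matrix protein tenascin-X, had 13.2, 24.1 and 28.4 CPM at P7, against 0.272, 0.0973 and 0.104 CPM at E17.5 (7.04, SE 0.45, adjusted p = 5.39e-06; 7.65 without E17.5 replicate 1). Lrrc15, a leucine-rich repeat membrane protein of fibroblasts, had 22.9, 24.4 and 32.0 CPM at P7 and 0.068, 0.0973 and 0.365 CPM at E17.5 (7.0, SE 0.51; 8.25 without E17.5 replicate 3). Ntn1, which encodes the secreted guidance cue netrin-1 (chromosome 11, 68209364 to 68400823, minus strand), had 45.7, 40.6 and 55.6 CPM at P7 and 0.951, 1.75 and 1.15 CPM at E17.5 (5.23, SE 0.31, adjusted p = 3.77e-06). That the P7 and E17.5 libraries of these genes do not overlap was a condition of their selection. The other genes of the 10 highest were Dab1, an adaptor of Reelin signalling (5.21, SE 0.67; 5.81 without E17.5 replicate 3), the serine protease family member Prss35 (5.05, SE 0.37), Enpp1 (5.01, SE 0.17), the metalloprotease Adam33 (4.89, SE 0.39), Aspn (4.83, SE 0.38) and Scgb1a1. Scgb1a1 is one of the airway markers above (4.47, SE 1.07, adjusted p = 0.0149), and its call ended without E17.5 replicate 2 and under limma-voom. All 5 airway markers tested had estimates above 0, but only 2 were called.

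Among the genes that fell, Zbtb16, which encodes the zinc finger factor PLZF (chromosome 9, 48654297 to 48836222, minus strand), had 0.199, 0.225 and 0.158 CPM at P7, against 60.2, 62.3 and 52.6 CPM at E17.5 (-8.18, SE 0.47, adjusted p = 3.77e-06). Scara5, a scavenger receptor that takes up ferritin, had 2.64, 2.93 and 1.21 CPM at P7 and 168, 333 and 290 CPM at E17.5 (-6.86, SE 0.52). Crh, corticotropin-releasing hormone, had 0.0997, 0 and 0.316 CPM at P7 and 8.02, 19.5 and 62.3 CPM at E17.5 (-7.67, SE 1.09; -6.52 without E17.5 replicate 3 and -8.97 without P7 replicate 3), and limma-voom did not call it. The E17.5 libraries thus spread widely for Crh and closely for Zbtb16. These genes too were selected for the absence of overlap with P7. The cytochrome Cyp1b1 (-6.25, SE 0.41), the collagen VI chain Col6a4 (-5.45, SE 0.46), H19, Hif3a, Hsd11b1, Igf2bp1 and Igf2 completed the 10 lowest and belong mostly to the groups below.

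**Figure D2:**
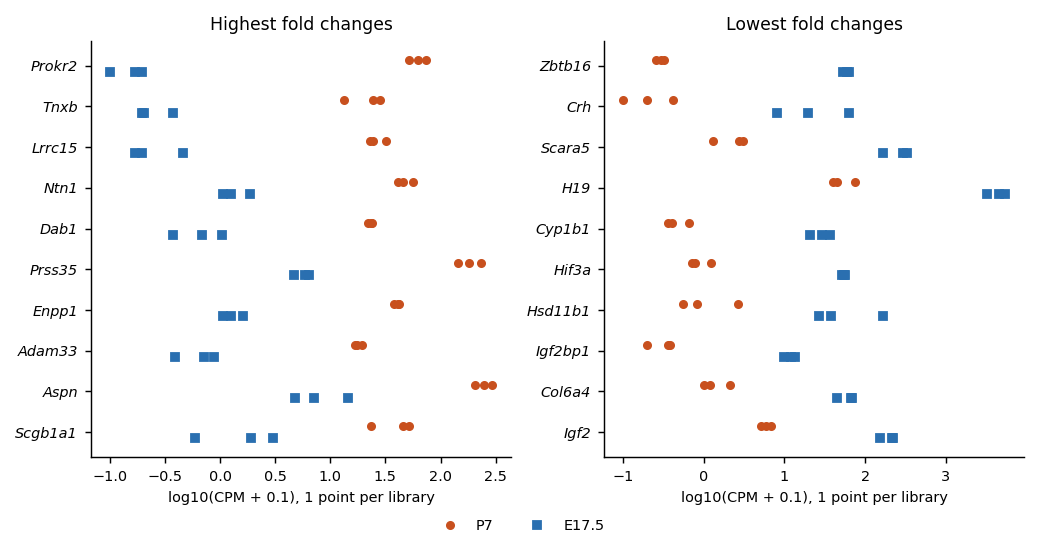
Levels of the 10 genes with the highest (left panel) and the 10 with the lowest (right panel) log2 fold change of P7 over E17.5 among called genes that reached a mean of 10 CPM and did not overlap, as log10(CPM + 0.1) on the x axis, with 1 point per library (P7 orange circles, E17.5 blue squares). The P7 and E17.5 points are separate for each gene by the way the genes were chosen, and Zbtb16 lies at 0.158 to 0.225 CPM at P7 and 52.6 to 62.3 CPM at E17.5.

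Genes of cell division were higher at P7 as a group. All 35 tested DNA replication genes rose, against 12.9% of all genes, with a median log2 fold change of 1.77 where the median of all genes was -0.01. Rrm2, the small subunit of ribonucleotide reductase, which makes deoxynucleotides, had 36.6, 38.5 and 39.3 CPM at P7, against 6.59, 4.18 and 5.06 CPM at E17.5 (2.84, SE 0.30, adjusted p = 0.000115). Pola1, the catalytic subunit of DNA polymerase alpha, had 11, 11.5 and 12.1 CPM at P7 and 3.6, 2.53 and 3.13 CPM at E17.5 (1.89, SE 0.17). Fen1, the flap endonuclease of lagging strand synthesis, rose by 1.80 (SE 0.16) and Mcm7, a subunit of the replicative helicase, by 0.97 (SE 0.09). Across the list the estimates ran from 0.38 to 2.94.

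Of 30 tested mitosis genes 29 rose, with a median of 1.84. Mki67, the proliferation marker Ki-67 (chromosome 7, 135689784 to 135716361, minus strand), had 90.9, 89.6 and 86.7 CPM at P7, against 21.9, 16.7 and 29.6 CPM at E17.5 (1.96, SE 0.22, adjusted p = 0.000188). The 3 P7 libraries were within 5 CPM of each other, and all lay above the E17.5 libraries. Aurkb, the kinase of the chromosomal passenger complex, had 13, 12.6 and 13.7 CPM at P7 and 2.45, 1.36 and 3.49 CPM at E17.5 (2.39, SE 0.28). Top2a, the topoisomerase that untangles replicated chromosomes, rose by 1.99 (SE 0.25) and Prc1, which bundles the microtubules of the central spindle, by 1.93 (SE 0.24). The 1 member that was not called was Aurka, the kinase of spindle poles, with 7.87, 6.65 and 8.63 CPM at P7 and 7.07, 3.99 and 6.15 CPM at E17.5 (0.42, adjusted p = 0.175). Over the 4 stages the summed level of the mitosis genes was 214 ± 74.8 CPM at E17.5. It was 792 ± 26 CPM at P3, 761 ± 27.6 CPM at P7 and 273 ± 102 CPM at P10 (SD, n = 3 each). The P7 level was near that of P3 and the P10 level near that of E17.5. The sums of the DNA replication genes were 275 ± 26.9, 794 ± 49.4, 688 ± 8.54 and 321 ± 32.5 CPM in the same order of stages.

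Promoters of 4 of these genes are shown because the 2 groups moved together and are known to be controlled through different elements, E2F sites at replication genes and the cell cycle homology region at mitosis genes. Each is the RefSeq window of 300 bases, from 250 before to 50 after the start (GRCm38.p6). Genes were taken in each list by adjusted p, and those without a match to the letters searched were passed over. A match in these 4 promoters was therefore a condition of their selection. Capitals mark the letters searched on both strands, which were TTTGGCGC, TTTCCCGC and TTTCGCGC for E2F and TTTGAA for the cell cycle homology region.
Pola1, chrX:93632106-93632405, minus strand: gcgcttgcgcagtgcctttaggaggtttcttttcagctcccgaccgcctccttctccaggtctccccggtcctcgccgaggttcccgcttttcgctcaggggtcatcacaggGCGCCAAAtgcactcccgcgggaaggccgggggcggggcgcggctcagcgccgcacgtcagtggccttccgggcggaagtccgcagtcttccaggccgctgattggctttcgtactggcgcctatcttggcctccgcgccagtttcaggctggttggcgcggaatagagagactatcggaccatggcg
Mcm7, chr5:138171834-138172133, minus strand: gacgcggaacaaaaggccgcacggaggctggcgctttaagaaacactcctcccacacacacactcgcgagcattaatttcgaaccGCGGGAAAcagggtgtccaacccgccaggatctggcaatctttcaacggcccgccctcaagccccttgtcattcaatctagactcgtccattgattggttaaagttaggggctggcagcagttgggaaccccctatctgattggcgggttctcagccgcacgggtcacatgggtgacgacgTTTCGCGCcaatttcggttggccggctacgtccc
Mki67, chr7:135716330-135716629, minus strand: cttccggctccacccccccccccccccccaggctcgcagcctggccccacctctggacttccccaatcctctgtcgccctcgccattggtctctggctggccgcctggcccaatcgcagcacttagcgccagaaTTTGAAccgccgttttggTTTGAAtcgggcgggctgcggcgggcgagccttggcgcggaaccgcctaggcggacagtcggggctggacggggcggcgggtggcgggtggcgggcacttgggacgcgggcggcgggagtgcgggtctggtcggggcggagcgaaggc
Prc1, chr7:80294201-80294500, plus strand: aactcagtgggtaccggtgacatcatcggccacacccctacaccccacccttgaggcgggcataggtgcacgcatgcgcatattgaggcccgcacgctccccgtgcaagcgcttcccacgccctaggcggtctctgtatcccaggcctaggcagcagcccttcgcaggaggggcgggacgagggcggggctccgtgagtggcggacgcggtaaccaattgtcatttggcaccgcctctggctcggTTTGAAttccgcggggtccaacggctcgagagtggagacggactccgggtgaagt
TTTGAA was present in 20 of 27 promoters of the mitosis genes (74.1%), which belonged to 25 of the 30 genes, against 17.9% of all 32851 promoters in the table. The E2F letters were in 1 of the 27 (3.70%) and in 1.84% of all promoters. Only 27 of the 35 DNA replication genes (77.1%) had a promoter in the table, under the 80% set as a minimum, so no share is given for that list. A match is a run of letters in this window and does not show that a factor binds there.

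Regulators of the entry into the cell cycle moved in both directions. Of 25 tested, 14 rose and 4 fell, with a median of 0.75. Ccnd1, cyclin D1 (chromosome 7, 144929931 to 144939925, minus strand), had 23.6, 26.7 and 31.8 CPM at P7, against 2.11, 1.36 and 1.93 CPM at E17.5 (3.90, SE 0.22, adjusted p = 3.62e-06). Ccnd2, cyclin D2, had 79.0, 86.4 and 85.7 CPM at P7 and 23, 16.3 and 19.7 CPM at E17.5 (2.09, SE 0.14), while the third D-type cyclin, Ccnd3, fell by 1.06 (SE 0.16). The D-type cyclins thus did not move together. Inhibitors of cyclin-dependent kinases also went both ways. Cdkn1c, the imprinted p57, had 41.2, 38.9 and 45.3 CPM at P7 and 108, 93.5 and 112 CPM at E17.5 (-1.32, SE 0.09, adjusted p = 8.79e-06), and Cdkn1a, p21, fell by 2.02 (SE 0.36). Cdkn2c, p18, rose by 1.65 (SE 0.13), as did the repressor E2f8 (2.31, SE 0.38). Unlike the replication genes, Ccnd1 and Ccnd2 stayed near their P7 means at P10, with 27.3 CPM at P7 and 27 CPM at P10 for Ccnd1 and with 83.7 CPM at P7 and 89.5 CPM at P10 for Ccnd2. Of 24 genes of DNA methylation and Polycomb 3 rose (12.5%) and 4 fell (16.7%), shares near the 12.9% and 12.5% of all genes. The counts were 5 higher without E17.5 replicate 3 and 2 lower without E17.5 replicate 2, E17.5 replicate 3 or P7 replicate 2. Uhrf1, which guides the maintenance methyltransferase to replicated DNA, rose by 2.32 (SE 0.27) and that enzyme, Dnmt1, by 1.16 (SE 0.10).

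Fetal growth genes were lower at P7. Of 25 tested imprinted and fetal growth genes, 16 fell and 1 rose, against 12.5% and 12.9% of all genes, and the median was -1.25. H19, a maternally expressed long non-coding RNA (chromosome 7, 142575529 to 142578143, minus strand), had 75.4, 45.0 and 39.8 CPM at P7, against 3215, 5435 and 4509 CPM at E17.5 (-6.36, SE 0.41, adjusted p = 5.39e-06). Its neighbour Igf2, insulin-like growth factor 2 (142650766 to 142666816, minus strand), had 5.83, 5.07 and 6.63 CPM at P7 and 154, 219 and 217 CPM at E17.5 (-5.07, SE 0.30, adjusted p = 3.77e-06). Both genes lay far lower in every P7 library, and both had intermediate means at P3, 215 ± 29.7 CPM for H19 and 36.1 ± 4.2 CPM for Igf2. Plagl1, an imprinted zinc finger factor, had 193, 183 and 183 CPM at P7 and 378, 541 and 412 CPM at E17.5 (-1.25, SE 0.13). Peg3, a paternally expressed zinc finger factor, fell by 1.40 (SE 0.11). The 1 member that rose, the amino acid transporter Slc38a4 (1.45, adjusted p = 0.0145), lost its call without E17.5 replicate 2 and without P7 replicate 3, and 2 members were higher without P10 replicate 1. Gnas, a G protein subunit, was not called, at 499, 520 and 544 CPM at P7 and 652, 570 and 546 CPM at E17.5 (-0.18, adjusted p = 0.252).

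Of 6 tested oncofetal genes, which encode RNA-binding and chromatin proteins of fetal tissue, 5 fell and 1 rose. Igf2bp1, which binds Igf2 mRNA among others, had 0.0997, 0.282 and 0.263 CPM at P7, against 13.4, 9.63 and 12 CPM at E17.5 (-5.73, SE 0.54, adjusted p = 5.79e-05). Igf2bp2 fell by 3.90 (SE 0.50) and Igf2bp3 by 3.02 (SE 0.27), so all 3 members of the family fell. The chromatin factor Arid3b was the 1 that rose (1.54, SE 0.43, adjusted p = 0.0249), a call that ended without E17.5 replicate 2 or 3 or P7 replicate 1, in the fit of the 6 libraries and under limma-voom. In the wider IGF system 6 of 15 genes fell and 2 rose, but only 3 fell without P7 replicate 3. Igf1, the growth factor that mesenchymal cells make throughout life, had 168, 169 and 223 CPM at P7 and 307, 514 and 666 CPM at E17.5 (-1.41, SE 0.31, adjusted p = 0.00851). Irs2, an adaptor of the insulin and IGF receptors, fell by 1.14 (SE 0.13). The 2 that rose were a binding protein and a protease. Igfbp5, a binding protein of the matrix, had 210, 273 and 240 CPM at P7 and 17.8, 38.4 and 13.7 CPM at E17.5 (3.38, SE 0.39, adjusted p = 0.000225), and Pappa2, the protease that cleaves it, had 54.3, 40.2 and 71.6 CPM at P7 and 1.77, 5.74 and 6.83 CPM at E17.5 (3.53, SE 0.46). The related protease Pappa fell (-1.38, SE 0.39, adjusted p = 0.0267), a call that ended without E17.5 replicate 1 or 2 or P7 replicate 1 or 3, in the fit of the 6 libraries and under limma-voom. The binding proteins Igfbp3 and Igfbp4 were not called (-0.85, adjusted p = 0.164, and -0.54, adjusted p = 0.13), although both were called lower without E17.5 replicate 3. The receptor Igf1r was not called (-0.11, adjusted p = 0.628).

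**Figure D3:**
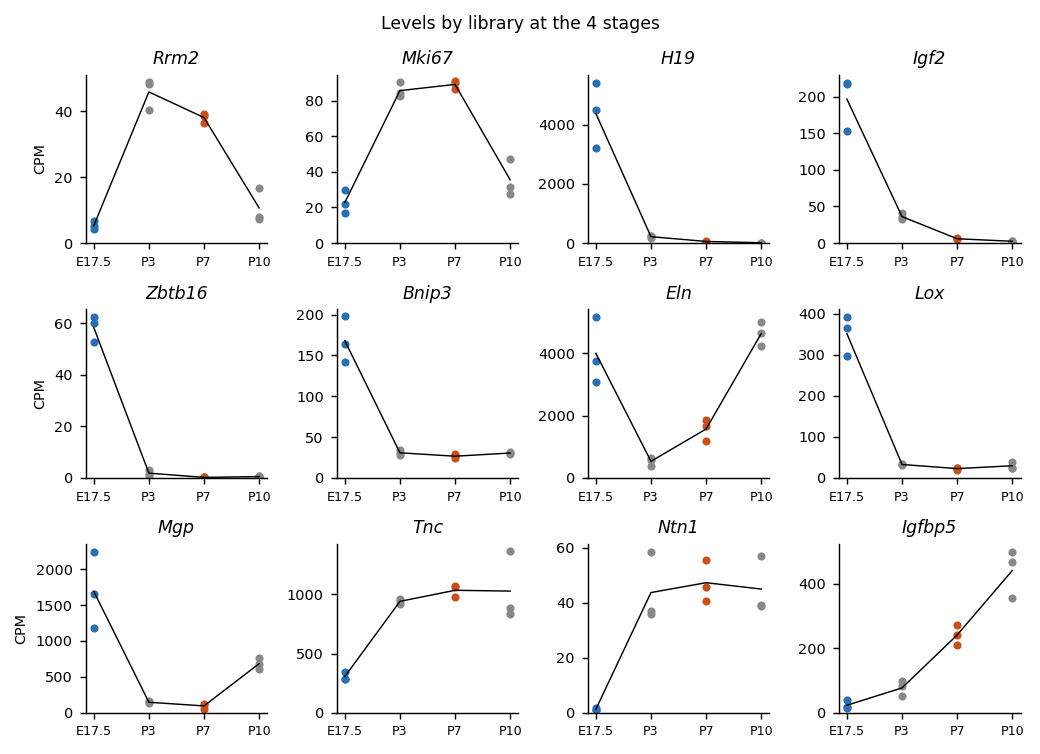
CPM of 12 named genes (y axes, each starting at 0) in the 3 libraries of each stage (points) with the stage mean (line), in order of stage on the x axis (E17.5 blue, P7 orange, P3 and P10 grey). Rrm2 and Mki67 are highest at P3 and P7, H19 and Igf2 are lower at each later stage, Eln is lowest at P3, and Ntn1 is at 0.951 to 1.75 CPM at E17.5 and above 35 CPM in all 9 later libraries.

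Genes that respond to glucocorticoids, the hormones that mature the fetal lung before birth, were lower at P7. Of 26 tested, 17 fell and 1 rose, and the median was -1.85. Zbtb16, described above, is one of them, and Fkbp5, a chaperone of the glucocorticoid receptor, had 7.77, 6.76 and 9.36 CPM at P7, against 88.5, 90.6 and 81.8 CPM at E17.5 (-3.45, SE 0.21, adjusted p = 3.77e-06). Hif3a, a member of the hypoxia-inducible factor family (chromosome 7, 17031507 to 17062427, minus strand), had 1.15, 0.620 and 0.684 CPM at P7 and 51.6, 56.3 and 54.0 CPM at E17.5 (-6.02, SE 0.34, adjusted p = 3.62e-06). Crispld2, a secreted protein of lung mesenchyme, had 4.24, 4.40 and 4.89 CPM at P7 and 98.8, 178 and 116 CPM at E17.5 (-4.85, SE 0.30). The E17.5 libraries agreed closely for Fkbp5 and Hif3a and spread more for Crispld2. None of the 3 overlapped with P7, which for Hif3a was a condition of its selection. Hsd11b1, the enzyme that regenerates active glucocorticoid, had 0.449, 0.733 and 2.58 CPM at P7 and 166, 37.7 and 26.4 CPM at E17.5 (-5.93, SE 0.94; -4.67 without E17.5 replicate 1 and -7.02 without P7 replicate 3). Nr3c1, the receptor itself, chosen after its values were seen, fell by 0.95 (SE 0.11, adjusted p = 0.000262). Angptl4, a secreted inhibitor of lipoprotein lipase, was the 1 member that rose (1.93, SE 0.37), with 2 members higher without E17.5 replicate 3. Sgk1 and Dusp1, both also induced by other signals, were not called (0.04, adjusted p = 0.942, and -0.54, adjusted p = 0.256). The summed level of the list was 2434 ± 450 CPM in E17.5, 1033 ± 35.4 CPM in P3, 777 ± 55.8 CPM in P7 and 1393 ± 107 CPM in P10 libraries.

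Clock genes, some of which glucocorticoids also control, split evenly, with 4 of 18 higher and 4 lower. Each is 22.2%, against 12.9% and 12.5% of all genes. The repressor Per2 had 8.62, 6.99 and 7.31 CPM at P7, against 29.3, 39.9 and 34.0 CPM at E17.5 (-2.17, SE 0.22, adjusted p = 8.8e-05), and the repressor Bhlhe40 fell by 1.69 (SE 0.25). Rora, an activating nuclear receptor of the clock, had 43.6, 55.8 and 47.9 CPM at P7 and 25.1, 32.2 and 17 CPM at E17.5 (0.99, SE 0.21), and the nuclear receptor Nr1d2 rose by 1.58 (SE 0.16). The labels used here give no time of day for any library, so time of day and stage cannot be told apart for these genes.

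Hypoxia and glycolysis genes were also lower at P7, with 16 of 34 tested members called lower, 1 called higher and a median of -0.49. Bnip3, a mitochondrial protein induced by low oxygen, had 28.8, 24.1 and 26.8 CPM at P7, against 164, 198 and 142 CPM at E17.5 (-2.66, SE 0.13, adjusted p = 3.19e-06). Ndrg1 had 4.83, 6.54 and 6.42 CPM at P7 and 35.0, 42.3 and 34.2 CPM at E17.5 (-2.65, SE 0.18), and Slc2a1, the glucose transporter GLUT1, fell by 3.43 (SE 0.36). Pfkp, the platelet form of phosphofructokinase, went the other way, at 29.8, 30.0 and 32.2 CPM at P7 and 8.02, 6.13 and 9.39 CPM at E17.5 (1.96, SE 0.17), and 2 members were higher without E17.5 replicate 3 or without P10 replicate 1. Vegfa, the endothelial growth factor, had 111, 164 and 143 CPM at P7 and 190, 112 and 89.8 CPM at E17.5 (0.09, adjusted p = 0.82), and was not called, and Hif1a, the oxygen-controlled factor, did not pass either (-0.20, adjusted p = 0.334). Slc2a1 is also the glucose transporter of red cells, and the erythroid marker sums given above were lower at P7 as well. Their part in its change was not tested.

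Elastic fibre genes were called in both directions, with 7 of 22 higher and 9 lower and a median of -0.19. Eln, tropoelastin (chromosome 5, 134702593 to 134747323, minus strand), had 1189, 1857 and 1661 CPM at P7, against 3750, 5172 and 3080 CPM at E17.5 (-1.35, SE 0.24, adjusted p = 0.00252). The stage means of Eln were 4001 ± 1068 CPM in E17.5, 533 ± 124 CPM in P3, 1569 ± 344 CPM in P7 and 4633 ± 390 CPM in P10 libraries, so P7 stood between a low at P3 and the level at P10. The enzymes that crosslink elastin and collagen changed in opposite directions. Lox, lysyl oxidase, had 19.8, 23.9 and 24.3 CPM at P7 and 393, 298 and 366 CPM at E17.5 (-3.96, SE 0.21, adjusted p = 3.19e-06). Loxl2 had 445, 391 and 497 CPM at P7 and 79.8, 111 and 134 CPM at E17.5 (2.04, SE 0.25), and Loxl1 had 111, 121 and 140 CPM at P7 and 53.1, 27.5 and 23.1 CPM at E17.5 (1.85, SE 0.27). No library of one stage overlapped the other for any of the 3 enzymes, which also held for 42.9% of all genes tested. Loxl3 was not called (0.19, adjusted p = 0.449). Ltbp4, a latent TGF-beta binding protein needed for elastic fibres, fell by 1.5 (SE 0.17), while Ltbp2 rose by 0.92 (SE 0.17) and the microfibril protein Mfap5 by 2.16 (SE 0.38). Fibulin-1 (Fbln1) fell by 0.97 (SE 0.16).

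Among collagens, 7 of 22 were higher and 10 lower, with a median of -0.47. The fibril-forming chains that were called included Col3a1, at 2499, 2833 and 2715 CPM at P7 and 1763, 1789 and 1332 CPM at E17.5 (0.72, SE 0.13, adjusted p = 0.00234), and Col1a1, at 797, 910 and 1040 CPM at P7 and 543, 458 and 432 CPM at E17.5 (0.94, SE 0.13). Col5a1, which starts fibrils, rose by 1.27 (SE 0.11) and Col12a1, which binds their surface, by 2.12 (SE 0.23). Col1a2, the partner chain of Col1a1 in type I collagen, was not called (-0.13, adjusted p = 0.475). The beaded-filament chains Col6a1 and Col6a2 fell by 1.05 (SE 0.13) and 1.17 (SE 0.13), and Col11a1, a minor fibrillar chain, fell by 2.58 (SE 0.33). Basement membrane genes were called lower in 11 of 21 and higher in 2 (median -0.50), with 7 lower without E17.5 replicate 2. Without E17.5 replicate 1 or 2, P3 replicate 1 or 2, any P7 library or P10 replicate 3, only 1 was called higher. Lamc1, the common laminin gamma chain, had 311, 321 and 320 CPM at P7 and 657, 932 and 725 CPM at E17.5 (-1.28, SE 0.14). Lama4 fell by 1.17 (SE 0.10), Lamc3 by 4.05 (SE 0.45) and Col4a5 by 1.94 (SE 0.17), and of the 2 higher members the proteoglycan perlecan, Hspg2, rose by 0.73 (SE 0.11).

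Matricellular proteins, which modulate how cells bind the matrix, were called higher in 8 of 17 and lower in 3, with a median of 0.80. Tnc, tenascin-C (chromosome 4, 63959785 to 64047015, minus strand), had 1060, 975 and 1068 CPM at P7, against 286, 346 and 285 CPM at E17.5 (1.76, SE 0.18, adjusted p = 9.82e-05). Thbs3 had 103, 92.2 and 114 CPM at P7 and 4.35, 14.2 and 10.3 CPM at E17.5 (3.43, SE 0.34), and Thbs2 rose by 1.56 (SE 0.16). With Tnxb, 4 of the tenascins and thrombospondins were thus higher. Sparcl1 had 531, 496 and 527 CPM at P7 and 1144, 1692 and 1648 CPM at E17.5 (-1.53, SE 0.16). Thbs1 had 1037, 504 and 673 CPM at P7 and 1758, 2139 and 1165 CPM at E17.5 (-1.19, SE 0.35, adjusted p = 0.0291), a call that ended without E17.5 replicate 1 or 2, without P7 replicate 2 or 3 and with no filter on low counts. Fn1, fibronectin, was not called, at 354, 410 and 444 CPM at P7 and 2681, 590 and 343 CPM at E17.5 (-1.58, adjusted p = 0.0878), where E17.5 replicate 1 alone was high, and was called by DESeq2 and without E17.5 replicate 3. Of 11 small leucine-rich proteoglycans 3 rose and 1 fell, a call that ended without E17.5 replicate 1, any one of the P3 or P7 libraries, or P10 replicate 2 or 3. Aspn, asporin, had 204, 251 and 294 CPM at P7 and 14.5, 4.67 and 6.99 CPM at E17.5 (4.83, SE 0.38, adjusted p = 1.98e-05), and the other two that rose were Ecm2 and Prelp (3.19, SE 0.40, and 1.19, SE 0.16). Of 28 matrix proteases and inhibitors 5 rose (17.9%) and 7 fell (25%), against 12.9% and 12.5% of all genes. Without E17.5 replicate 2 or without P7 replicate 2, 3 were higher. Adamts14, which removes collagen propeptides, fell by 3.35 (SE 0.23), Adamts1, which cleaves large proteoglycans, by 2.03 (SE 0.26) and the gelatinase Mmp2 by 1.44 (SE 0.15), while the inhibitor Timp2 rose by 0.86 (SE 0.12).

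Regulators of mineral deposition included the gene with the lowest adjusted p of all those named here. Enpp1, which makes the mineralization inhibitor pyrophosphate (chromosome 10, 24637914 to 24712159, minus strand), had 42.1, 40.9 and 38 CPM at P7, against 1.16, 0.973 and 1.51 CPM at E17.5 (5.01, SE 0.17, adjusted p = 3.08e-07). Mgp, matrix Gla protein, another inhibitor of calcification (chromosome 6, 136872435 to 136875823, minus strand), had 49.7, 125 and 111 CPM at P7 and 1178, 2238 and 1654 CPM at E17.5 (-4.15, SE 0.35, adjusted p = 3.17e-05). These 2 inhibitors therefore moved in opposite directions. Mgp had 684 ± 78.7 CPM at P10, above P7 and below E17.5.

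Markers of the secondary crest myofibroblast were called in both directions, 6 of 17 higher and 7 lower (median -0.11). Mustn1, a small nuclear protein of muscle and skeletal tissue, had 131, 139 and 167 CPM at P7, against 16.0, 26.4 and 16.4 CPM at E17.5 (2.90, SE 0.26, adjusted p = 4.31e-05). P2ry14, a receptor for UDP-glucose, had 290, 255 and 306 CPM at P7 and 34.8, 51.8 and 90.3 CPM at E17.5 (2.27, SE 0.31). Hhip, which binds Hedgehog ligands and is itself a Hedgehog target, had 105, 104 and 102 CPM at P7 and 483, 751 and 593 CPM at E17.5 (-2.56, SE 0.17, adjusted p = 6.92e-06). Mustn1, P2ry14, Aspn and Tnc were thus higher at P7, whereas Hhip, Eln, Pdgfra, the Wnt receptor Lgr6 (-1.47, SE 0.25) and the lysophospholipase Enpp2 (-2.90, SE 0.30) were lower. Hhip and Lgr6 are also markers of airway smooth muscle. The 14 markers of that tissue summed to 1109 to 1434 CPM at P7 and 1212 to 1967 CPM at E17.5 (exact permutation p = 0.3). Of 13 tested, 1 was higher (7.69%) and 3 lower (23.1%), and the part of airway muscle in these changes was not tested. Tgfbi, a secreted matrix protein, was not called, at 1941, 1740 and 1937 CPM at P7 and 860, 1631 and 1694 CPM at E17.5 (0.42, adjusted p = 0.262).

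Contractile genes had 6 of 26 members higher (23.1%) and 5 lower (19.2%), against 12.9% and 12.5% of all genes (median 0.34). Cald1, caldesmon, had 1800, 1591 and 1827 CPM at P7 and 686, 814 and 1011 CPM at E17.5 (1.06, SE 0.15, adjusted p = 0.000817), and the crosslinker Actn1 rose by 1.10 (SE 0.14). Mylk, myosin light chain kinase, had 211, 228 and 213 CPM at P7 and 354, 322 and 348 CPM at E17.5 (-0.65, SE 0.08), and Cnn2 fell by 0.85 (SE 0.16). Myh11, smooth muscle myosin, showed a difference of 0.00 with an SE of 0.28 (adjusted p = 0.993). These counts were sensitive to single libraries. Higher calls numbered 3 without E17.5 replicate 1, E17.5 replicate 2, P7 replicate 1 or P7 replicate 3, and lower calls 3 without P7 replicate 2 or 3. Desmin (Des), which kept its call in each of these, rose by 1.01 (SE 0.21).

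Markers of alveolar fibroblasts, the lipid-storing neighbours of myofibroblasts, were lower at P7 in 12 of 20 and higher in 1, but with wide spread. The 22 markers in the table summed to 296 to 531 CPM at P7, against 3817, 1190 and 978 CPM in E17.5 replicates 1, 2 and 3. E17.5 replicate 1 was the highest E17.5 library for 19 of 20 tested markers (95%), against 32.9% of all genes tested. Tcf21, a transcription factor of this lineage (chromosome 10, 22817281 to 22820174, minus strand), had 13, 21.9 and 25.8 CPM at P7 and 359, 96.2 and 93.6 CPM at E17.5 (-3.18, SE 0.56, adjusted p = 0.00308; -2.23 without E17.5 replicate 1). Mfap4 had 81.3, 155 and 180 CPM at P7 and 1636, 658 and 527 CPM at E17.5 (-2.76, SE 0.44; -2.09 without that library), and Wnt2, a ligand of the lung mesenchyme, had 0.498, 0.676 and 1.31 CPM at P7 and 38.9, 7.30 and 4.69 CPM at E17.5 (-4.34, SE 0.79; -2.84 without it). For these 3 genes the other E17.5 libraries also lay above every P7 library. Lower calls on the list numbered 6 without P7 replicate 1, 4 without P7 replicate 2 and 6 without P7 replicate 3. The 1 member that rose was Lpl, lipoprotein lipase, with 47.4, 54.2 and 53.7 CPM at P7 and 7.88, 6.13 and 9.60 CPM at E17.5 (2.71, SE 0.22, adjusted p = 2.57e-05). Whether the share of such cells in the sort changed was not tested.

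**Figure D4:**
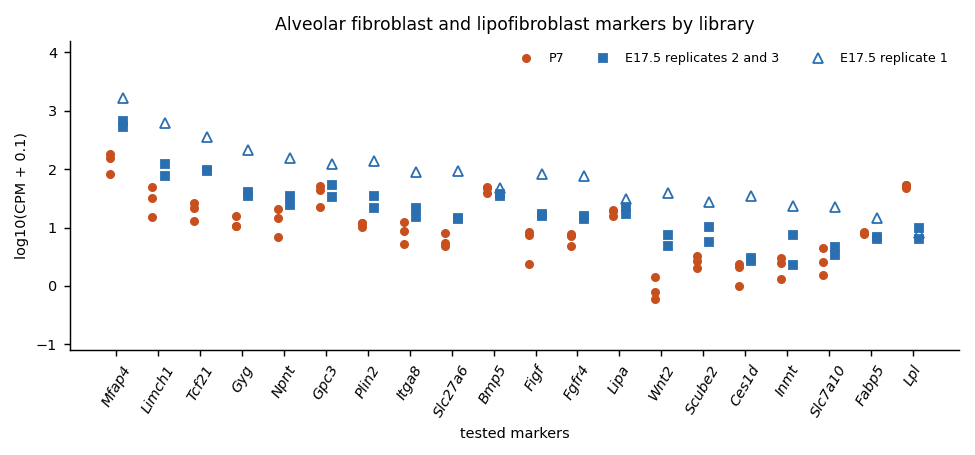
Levels of the 20 tested alveolar fibroblast and lipofibroblast markers as log10(CPM + 0.1) on the y axis, 1 point per library (P7 orange circles, E17.5 replicates 2 and 3 blue squares, E17.5 replicate 1 open blue triangles). The triangle is the highest E17.5 point for 19 of 20 markers, and Lpl is the member that is higher at P7.

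Other mesenchymal markers were mixed. Pericyte and vascular smooth muscle genes were called lower in 7 of 18 and higher in 1 (median -0.83), and their sums were 410 to 489 CPM at P7 and 589 to 746 CPM at E17.5. Cspg4, the proteoglycan NG2, had 4.88, 4.56 and 5.42 CPM at P7, against 29.6, 39.1 and 26.4 CPM at E17.5 (-2.68, SE 0.16, adjusted p = 3.77e-06), and Rgs5 fell by 1.38 (SE 0.23). Pdgfrb, the receptor that defines pericytes, was the 1 member called higher, at 49.9, 65.5 and 49.6 CPM at P7 and 31.0, 41.3 and 22.9 CPM at E17.5 (0.80, SE 0.19, adjusted p = 0.0126), a call that ended without P7 replicate 2 and in the fit of the 6 libraries. Of 15 adventitial fibroblast markers 2 rose (13.3%) and 3 fell (20%), against 12.9% and 12.5% of all genes. The 17 markers in the table summed to 428 to 594 CPM at P7 and 603 to 713 CPM at E17.5. Scara5, which fell by 6.86 as given above, is one of them. Cd34, a surface sialomucin also found on endothelium and progenitor cells, had 251, 300 and 333 CPM at P7 and 20.0, 20.7 and 32.0 CPM at E17.5 (3.6, SE 0.21, adjusted p = 3.77e-06). The part of endothelial cells, whose marker sums are given above, in the change of Cd34 was not tested.

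**Figure D5:**
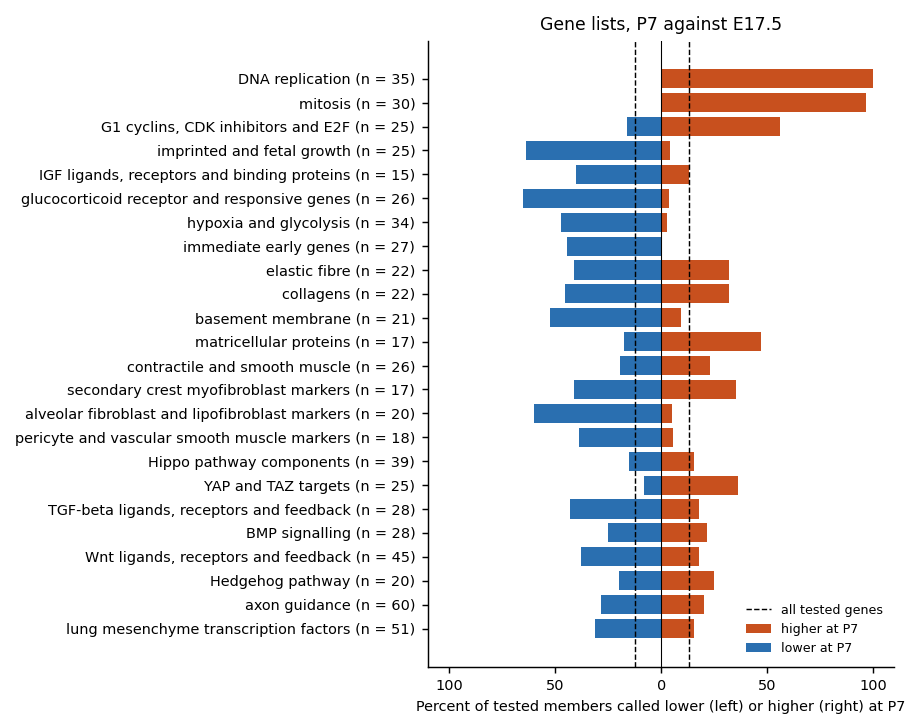
Percent of the tested members of 24 gene lists called higher at P7 (orange, to the right) or lower at P7 (blue, to the left), with the number tested in brackets and dashed lines at the 12.9% and 12.5% of all tested genes called in each direction. All 35 DNA replication and 29 of 30 mitosis genes extend to the right, while imprinted, glucocorticoid-responsive and alveolar fibroblast genes extend to the left.

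For the Hippo pathway, the 2 coactivators were not called. Yap1 had 48.2, 46.0 and 50.4 CPM at P7, against 58.3, 61.3 and 56.7 CPM at E17.5 (-0.28, SE 0.10, adjusted p = 0.071), with every P7 library lower and a call by DESeq2, and Wwtr1, which encodes TAZ, had 47.1, 46.2 and 49.1 CPM at P7 and 60.5, 58.7 and 42.7 CPM at E17.5 (-0.18, SE 0.20, adjusted p = 0.557). Of 39 components 6 rose and 6 fell, a share near that of all genes (12.9% and 12.5%). Higher calls numbered 3 without E17.5 replicate 2, P3 replicate 1, P7 replicate 1, P7 replicate 3 or P10 replicate 2. Amotl1, a scaffold that holds YAP outside the nucleus, had 78.9, 73.0 and 79.4 CPM at P7 and 29.1, 32.8 and 35.8 CPM at E17.5 (1.24, SE 0.09, adjusted p = 1.23e-05), and the scaffold Frmd6 rose by 1.17 (SE 0.19). The kinase Lats1 fell by 0.45 (SE 0.08), Limd1, which binds and restrains it, by 1.56 (SE 0.17), and the atypical cadherin Fat4 by 1.11 (SE 0.12). Lats2 was not called (-0.01, adjusted p = 0.979).

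Reported targets of YAP and TAZ were called higher in 9 of 25 and lower in 2, but the median of the list was 0.04. Estimates ran from -2.80 to 2.62, with 13 above 0 and 12 below. Ctgf had 296, 107 and 149 CPM at P7, against 41.7, 82.9 and 77.1 CPM at E17.5 (1.45, SE 0.44, adjusted p = 0.0345), and its call ended without any one of the E17.5 libraries, P3 replicate 1, P7 replicate 1 or P7 replicate 3, and also in the fit of the 6 libraries and with no filter on low counts. Cyr61 had 964, 323 and 371 CPM at P7 and 776, 603 and 512 CPM at E17.5 (-0.19, SE 0.34, adjusted p = 0.74). P7 replicate 1 was thus the highest library for both, and Ankrd1 was too low to be tested. Among the members called higher, Tgfb2 (2.62, SE 0.24) and the membrane repair protein Myof (2.49, SE 0.31) were among those with the lowest adjusted p. So were the BMP-binding Crim1 (0.66, SE 0.09) and the secreted glycoprotein Fstl1 (0.87, SE 0.14). Higher calls numbered 5 without P7 replicate 1 or without P7 replicate 3, and lower calls 4 without E17.5 replicate 3.

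In TGF-beta signalling, which drives matrix production and myofibroblast differentiation, 5 of 28 genes rose and 12 fell (median -0.58). The ligand Tgfb2 had 95.6, 94.0 and 110 CPM at P7, against 17.3, 12.7 and 18.6 CPM at E17.5 (adjusted p = 4.32e-05), and the ligand Tgfb3 had 117, 116 and 126 CPM at P7 and 24.0, 32.4 and 36.1 CPM at E17.5 (1.95, SE 0.16). The type II receptor Tgfbr2 fell by 0.57 (SE 0.09), the coreceptor Tgfbr3 by 1.30 (SE 0.15) and the type I receptor Acvrl1 by 0.91 (SE 0.11). The coreceptor Eng rose by 1.21 (SE 0.19) and the effector Smad3 by 1.25 (SE 0.17), while the inhibitory Smad7 was not called (-0.64, adjusted p = 0.0697), although it was called by DESeq2, in the fit of the 6 libraries and without P3 replicate 3 or P10 replicate 1.

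Other signalling families also split by member. In BMP signalling the ligand-like Gdf10 had 15, 19.7 and 24.1 CPM at P7, against 139, 155 and 165 CPM at E17.5 (-2.96, SE 0.16, adjusted p = 3.19e-06), and the ligand Bmp6 fell by 4.86 (SE 0.33). Bmp4 rose by 0.87 (SE 0.20), and Id4, a target of the pathway, by 1.85 (SE 0.26). BMP calls numbered 6 of 28 higher (21.4%) and 7 lower (25%), against 12.9% and 12.5% of all genes. The counts were 3 higher without P7 replicate 3, 4 lower without E17.5 replicate 2 and 3 lower without any one of the P7 libraries. In Wnt signalling 17 of 45 genes fell and 8 rose (median -0.29). The secreted inhibitor Notum had 10.8, 6.71 and 7.26 CPM at P7 and 38.1, 77.6 and 80.9 CPM at E17.5 (-2.98, SE 0.40), Sfrp2, another inhibitor, fell by 3.63 (SE 0.32) and the coreceptor Lrp5 by 1.13 (SE 0.09). Wnt11, a ligand of the planar polarity branch, had 130, 134 and 155 CPM at P7 and 23.9, 52.5 and 47.8 CPM at E17.5 (1.76, SE 0.27), while Wnt5a was not called (0.27, adjusted p = 0.406). Higher Wnt calls numbered 4 without E17.5 replicate 1, 5 without P7 replicate 1 or 2, 3 without P7 replicate 3 and 4 without P10 replicate 3.

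Among Hedgehog targets Hhip fell as given above, whereas Ptch1, the receptor and a target, had 148, 125 and 143 CPM at P7 and 96.1, 124 and 152 CPM at E17.5 (0.16, adjusted p = 0.467) and was not called. Gli1 was not called (0.56, adjusted p = 0.065), but was called higher by DESeq2, in the fit of the 6 libraries, with upper-quartile scaling, with a minimum mean of 1 CPM and without P3 replicate 3. The factor Gli3 rose by 0.75 (SE 0.09) and the coreceptor Boc fell by 1.09 (SE 0.14). Hedgehog calls numbered 5 of 20 higher (25%) and 4 lower (20%), against 12.9% and 12.5% of all genes. Without P7 replicate 3, 3 were higher. Of 20 FGF genes 3 rose (15%) and 6 fell (30%), against 12.9% and 12.5% of all genes, with 3 lower without any one of the P7 libraries. Fgf7, a growth factor for epithelium, had 16.9, 15.4 and 17.7 CPM at P7 and 50.5, 45.8 and 45.4 CPM at E17.5 (-1.5, SE 0.12, adjusted p = 2.58e-05), and Fgf10, which drives airway branching, had 0.698, 1.41 and 1.05 CPM at P7 and 20.3, 4.87 and 4.90 CPM at E17.5 (-3.25, SE 0.62; -2.21 without E17.5 replicate 1). Etv4 and Etv5, factors induced by FGF receptors, rose by 3.65 (SE 0.31) and 1.68 (SE 0.15). Etv5 is also a factor of alveolar epithelium, whose marker sums are given above, and the part of those cells in its change was not tested. Fgf18, a ligand of the septating lung, was not called, at 109, 159 and 142 CPM at P7 and 81.5, 149 and 216 CPM at E17.5 (-0.12, adjusted p = 0.836).

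Among transcription factors of the lung mesenchyme 8 of 51 were higher (15.7%) and 16 lower (31.4%), against 12.9% and 12.5% of all genes (median -0.07). Zfpm2, a cofactor of GATA proteins, had 57.7, 63.8 and 58.3 CPM at P7, against 11.3, 14.9 and 16.8 CPM at E17.5 (2.06, SE 0.15, adjusted p = 9.31e-06), and Foxp1, Zeb1 and Tshz2 rose by 1.44 (SE 0.20), 1.40 (SE 0.17) and 1.02 (SE 0.10). Klf4 had 48.8, 37.0 and 49.1 CPM at P7 and 133, 157 and 144 CPM at E17.5 (-1.69, SE 0.22). Zeb2, Nfib, Tbx2, Tbx4 and Foxf1 were not called, with log2 fold changes of -0.07, 0.00, 0.05, 0.18 and -0.01.

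Guidance receptors were called with the ligand Ntn1. Unc5b, a netrin receptor, had 38.9, 42.9 and 45.1 CPM at P7, against 4.69, 6.33 and 4.22 CPM at E17.5 (3.07, SE 0.19, adjusted p = 4.11e-06), whereas Neo1, another netrin receptor, had 23.1, 25.7 and 26.2 CPM at P7 and 85.8, 56.3 and 41.3 CPM at E17.5 (-1.29, SE 0.21). The semaphorin receptors Plxna4 and Plxna2 also went in opposite directions (1.05, SE 0.11, and -1.65, SE 0.24). Of 60 guidance genes 12 rose (20%) and 17 fell (28.3%), against 12.9% and 12.5% of all genes. Without P7 replicate 1 or without P7 replicate 3, 10 were lower. Robo2 and Robo1, receptors of Slit ligands, were not called (0.06, adjusted p = 0.802, and -0.08, adjusted p = 0.727).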

How the data were processed

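Per the labels, RNA of cells with both reporters, sorted from whole mouse lung, went into stranded low-input total RNA libraries, although the molecule label names polyadenylated RNA. The deposited table holds estimated counts, which the authors appear to have scaled by transcript length, since low values of short transcripts lie far above 1. For this reason no limit was set from a count of 0. The build was GRCm38, per the submitters' processing notes. Aligner, quantifier and use of strand: not given in the sources used here. Positions came from GENCODE M21, for 92.1% of 28004 genes.

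CPM were computed here from the deposited estimated counts with TMM scaling. Rounded values of all 12 libraries, filtered by stage with edgeR's filter on low counts, entered 1 robust edgeR 4.0.16 fit with stage as the factor (limma 3.58.1 and R 4.3.3), and the contrast was P7 minus E17.5. SE is the log2 fold change divided by the root of the F statistic. The procedure was tested on simulated data. The members and gene lists were chosen with earlier results of these data known. Named genes are the 10 highest and 10 lowest fold changes among called genes that reach 10 CPM without overlap, the 6 largest CPM differences each way, up to 4 called members per list and direction by adjusted p, and the reporter and main Hippo genes, plus uncalled members taken in order of CPM. Predicted genes and ribosomal pseudogenes were left out of the first 2 sets. Nr3c1, Igf1r, Pappa, Arid3b, Tapbp, Igfbp3, Igfbp4, Loxl3, Sgk1, Hif1a, Lats2, Smad7, Ptch1 and Gli1 were chosen after their values were seen. Arid3b and Tapbp also fall under the rule for called list members. Alternatives were other scalings, filters and tools, the 6 libraries alone, a replicate block, a minimum fold of 1.5 and leaving out each library in turn. Promoters came from RefSeq (GRCm38.p6).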

Additional observations from a re-analysis of the deposited data

How the results depend on the processing

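The counts of genes called higher and lower at P7 were within 1.5 times the reported ones with other scalings, other filters, DESeq2 1.42.0 (2575 and 2666), limma-voom (2000 and 2035), a fit without robust shrinkage and a fit of the 6 libraries alone (1727 and 1713). A required fold of 1.5 left 780 and 670, and 636 at least 2-fold lower. With 1 library left out at a time, higher calls ranged from 1403 to 2354 and lower calls from 1316 to 2111, and those of at least 2-fold from 868 to 1172 and from 742 to 1017. Same-numbered libraries were not treated as pairs in the main fit. Deviations of same-numbered P7 and E17.5 libraries correlated at -0.10, -0.01 and 0.15, and those of differently numbered ones from -0.18 to 0.18. So few correlations cannot exclude a pairing. A fit with the replicate number as a block gave 1915 and 1799 calls. Of the 20 alveolar fibroblast markers tested, 12 were called lower, against 6 with the block and 4 in the fit of the 6 libraries.

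Of 307 called genes named by rule, 250 were called in all 12 fits that left out a library. Calls ended for 109 with the required fold of 1.5, 26 in the fit of the 6 libraries, 20 under limma-voom, 13 with no filter, 10 with the replicate block (Ctgf among them), 6 with upper-quartile scaling and 1 without robust shrinkage, and for none of those fitted with the other 4 settings. None of the 307 changed sign in these fits. Of 32 named genes that were not called, the log2 fold changes of 10 changed sign. That of Foxf1 was 0.051 with upper-quartile scaling, 0.0092 with a minimum mean of 1 CPM and 0.019 under limma-voom. That of Lats2 was 0.058 with upper-quartile scaling, 0.0078 with no filter, 0.016 with a minimum mean of 1 CPM and 0.00042 with the block. That of Myh11 was -0.00023 with RLE scaling, -0.0090 without small structural RNAs, -0.00026 by DESeq2 and -0.012 with the block. That of Nfib was 0.067 with upper-quartile scaling, 0.014 with no filter, 0.024 with a minimum mean of 1 CPM and 0.0021 in the fit of the 6 libraries. With 1 library left out, estimates ranged from -0.88 to 0.078 for Cyr61, from -0.41 to 0.27 for Fgf18, from -0.21 to 0.13 for Foxf1, from -0.087 to 0.11 for Lats2, from -0.22 to 0.29 for Myh11, from -0.063 to 0.060 for Nfib, from -0.18 to 0.011 for Robo1, from -0.036 to 0.27 for Robo2, from -0.075 to 0.20 for Sgk1 and from -0.098 to 0.46 for Vegfa. Depth limits low genes most, and 3 libraries per stage limit all tests.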

Other observations

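Immediate early genes rise quickly after stress or growth signals. Of 27 tested, 12 (44.4%) were called lower at P7 by edgeR's quasi-likelihood test, against 12.5% of all genes. The median log2 fold change was -0.75. None was called higher, 1 was higher at an unadjusted p under 0.05, and DESeq2 called 1. Lower calls numbered 7 without E17.5 replicate 2, P7 replicate 2 or P7 replicate 3. Fosb had 149, 74.5 and 89.7 CPM at P7, against 380, 421 and 433 CPM at E17.5 (-1.98, SE 0.28, adjusted p = 0.000665). Fosl2 fell by 1.26 (SE 0.17) and Jund by 1.12 (SE 0.16). Fos had 1538, 842 and 1027 CPM at P7 and 1871, 1124 and 1475 CPM at E17.5, and was not called (-0.39, adjusted p = 0.504).

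Genes of antigen presentation were called higher at P7 in 6 of 14 and lower in 1, against 12.9% and 12.5% of all genes tested. Limma-voom called 3 higher, without the class II genes H2-Aa, H2-Ab1 and Cd74. Cd74 had 2.79, 3.94 and 1.58 CPM at P7, against 0.272, 0.0973 and 0.522 CPM at E17.5 (3.09, SE 0.50, adjusted p = 0.00146 by edgeR). The 1 lower member, Tapbp, lost its call without E17.5 replicate 2 and in the fit of the 6 libraries. H2-K1, a class I heavy chain, had 43.8, 41.2 and 32.5 CPM at P7, against 16.7, 16.8 and 12.8 CPM at E17.5 (1.34, SE 0.20, adjusted p = 0.00102), and class I genes share long near-identical stretches, so the split of reads among them is uncertain. Of 28 antioxidant genes 8 rose and 10 fell, with 4 to 5 higher without E17.5 replicate 2, any one of the P7 libraries or P10 replicate 3. Sod3, the extracellular superoxide dismutase, had 15.3, 22 and 24.8 CPM at P7, against 1.43, 0.876 and 0.678 CPM at E17.5 (4.38, SE 0.27, adjusted p = 4.81e-06). Gpx3, a secreted glutathione peroxidase, fell by 3.6 (SE 0.55), and by 2.84 without E17.5 replicate 1. The calcium channel gene Cacna1g had 18.6, 23.4 and 17.1 CPM at P7, against 97.9, 156 and 121 CPM at E17.5 (-2.66, SE 0.18, adjusted p = 6.96e-06), while Cacna1c, a channel gene of another family, rose by 1.02 (SE 0.10).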
